A study of Homo sapiens with 12 samples.

Results

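The mRNA levels of 9 genes of the ERK5 pathway were followed in WI-38, a diploid fibroblast line from human lung, among the 57773 genes listed in the count files. They were the kinase MAPK7 (which encodes ERK5), its upstream kinases MAP2K5, MAP3K2 and MAP3K3, the MEF2 transcription factors MEF2A, MEF2C and MEF2D, and the Krüppel-like factors KLF2 and KLF4. The genes were listed by name as parts of the pathway, and all 9 had enough counts to be tested. The 12 libraries formed 4 groups of 3. Proliferating cells received a non-targeting siRNA (siCtrl) and 8 days of vehicle (DMSO). The other groups were cells made senescent with 8 days of etoposide at 50 µM, a topoisomerase inhibitor that breaks DNA, and received siCtrl, an siRNA pool against NTRK2 (siNTRK2), the mRNA of the receptor TrkB, or an siRNA pool against BDNF (siBDNF), its ligand. Every siRNA was used at 25 nM, also in the control groups. All groups came from the same line, kept between population doubling levels 15 and 25, so the libraries carry no variation between donors. The study's methods describe in vitro experiments in general as independent repeats in which all groups were handled together, but the labels do not tie a replicate number to one such repeat. The p-values measure only the spread between these libraries.

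ERK5 is a MAP kinase activated by phosphorylation. MAP3K2 and MAP3K3 phosphorylate MEK5, the product of MAP2K5, which phosphorylates ERK5. Active ERK5 enters the nucleus and activates MEF2 factors, which bind an AT-rich element, the MEF2 box, and in endothelial cells drive KLF2 and KLF4, regulators of quiescence and of anticoagulant and vasoactive genes. These libraries hold mRNA levels only, so neither the phosphorylation of ERK5 nor its activity was measured.

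Because MEF2 factors act through the MEF2 box, the sequence before each gene start was searched for it in RefSeq promoters of GRCh38.p14, on both strands. All 9 genes matched, with 19 promoters between them, and 3 of the 19 held a MEF2 box within 250 bases before the start, each in a different gene. Of all 35116 promoters 2.80% held this box. KLF2 and KLF4 are printed whole, as the KLF genes that MEF2 factors are known to drive. The promoters of MEF2A and MEF2C are printed as a short window around the box. Sequences run 5′ to 3′ on the strand of the gene and capitals mark the box. A match is a description of the letters, not evidence of binding.
KLF2, chr19:16324576-16324825, plus strand, box starting 120 bases before the gene start: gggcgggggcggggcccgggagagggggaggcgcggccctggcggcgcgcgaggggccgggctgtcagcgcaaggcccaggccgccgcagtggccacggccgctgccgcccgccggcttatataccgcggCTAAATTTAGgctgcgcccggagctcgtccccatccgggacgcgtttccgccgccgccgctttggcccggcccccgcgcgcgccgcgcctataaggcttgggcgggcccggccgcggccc
KLF4, chr9:107489770-107490019, minus strand, no MEF2 box in this window: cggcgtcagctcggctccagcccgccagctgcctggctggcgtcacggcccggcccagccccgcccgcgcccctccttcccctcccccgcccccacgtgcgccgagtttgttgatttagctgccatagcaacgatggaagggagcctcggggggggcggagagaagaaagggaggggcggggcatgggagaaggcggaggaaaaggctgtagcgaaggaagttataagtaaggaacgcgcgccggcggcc
MEF2A, from the window chr15:99565734-99565983, plus strand, box starting 23 bases before the gene start: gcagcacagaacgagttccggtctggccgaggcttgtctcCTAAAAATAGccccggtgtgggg
MEF2C, from the window chr5:88824345-88824594, minus strand, box starting 175 bases before the gene start: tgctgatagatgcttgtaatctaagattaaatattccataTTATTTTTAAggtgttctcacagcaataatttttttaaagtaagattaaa
Of the promoters listed for each gene, the box stood in the single KLF2 promoter, in 1 of 3 for MEF2A and in 1 of 7 for MEF2C.

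Library totals ranged from 31567912 to 72328151 counts. NTRK2 had 0 counts in all 3 siNTRK2 libraries against 7, 15 and 10 in siCtrl-transfected senescent cells, at least 3.37-fold lower when 3 counts per library are taken as the limit of detection. BDNF mRNA changed by -1.79 on the log2 scale with siBDNF. The summed level of 7 fibroblast markers lay between 22400 and 32700 normalized CPM (counts scaled to library size by edgeR's TMM factors) in the 4 groups. The 2 measured endothelial markers summed to at most 2.59 CPM, with CDH5 at 0 in proliferating cells, and the 3 leukocyte markers to at most 1.95, with PTPRC and CD3E at 0 in proliferating cells. Sums of 4 epithelial markers (44.4 to 88.3 CPM), 4 neuronal markers (200 to 320) and 4 muscle markers (3.79 to 6.34) came mainly from KRT8 and KRT19, TUBB3, and MYH11. Of the libraries, siNTRK2 replicate 2 stood apart on the second principal component (-64.6, against -12.4 to 18.4 for the others), and results that change without it are given both ways.

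All 9 mRNAs were present in every group. To compare levels between genes, CPM were divided by the length of the gene's canonical transcript, without knowing which transcripts these cells make. In siCtrl-transfected senescent cells MEF2D mRNA was the most abundant per length, at 11.7 ± 0.0895 CPM per kb (SD, n = 3), and MAPK7 followed at 11 ± 0.558; their libraries overlapped. MAP3K3 (8.30 CPM per kb), MEF2A (6.88) and MAP2K5 (5.31) came next, each apart from its neighbour above. KLF4 (4.70 CPM per kb) overlapped with MAP2K5. KLF2 (3.02 CPM per kb), MAP3K2 (2.55) and MEF2C (0.453) were the lowest, without overlap between neighbours. In proliferating cells the order differed, with MAPK7 highest at 10.0 CPM per kb and KLF4 at 2.46, below KLF2 at 3.05.

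**Figure D1:**
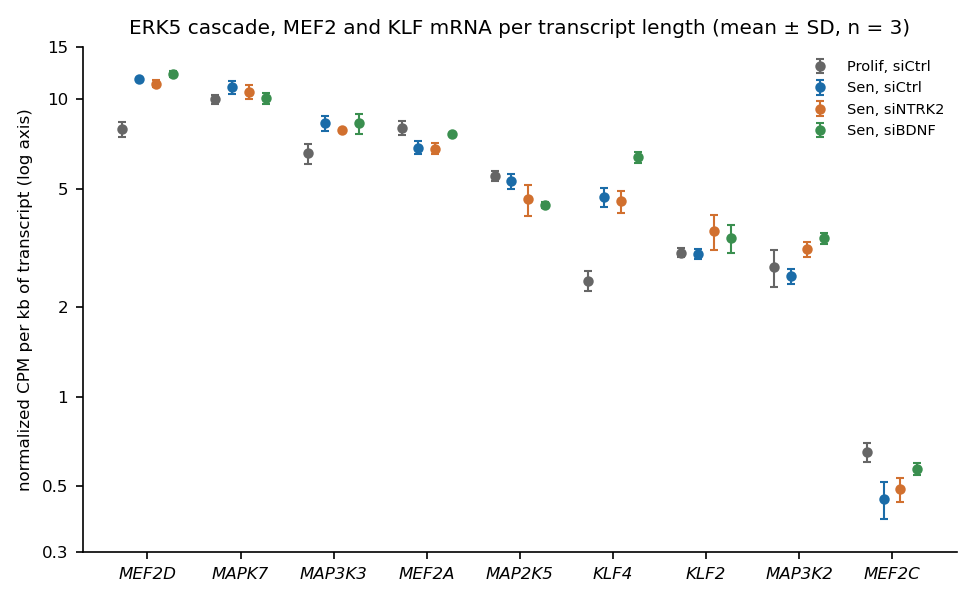
Levels of the 9 mRNAs as normalized CPM per kb of canonical transcript on a log axis, with points and bars for the mean ± SD of the 3 libraries of each group. MEF2D and MAPK7 lie at the top in senescent cells and MEF2C lies lowest in every group, at 0.453 to 0.654 CPM per kb.

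The ERK5 pathway genes were then compared between senescent and proliferating cells, both with siCtrl. KLF4, MEF2D and MAP3K3 mRNAs rose in senescence, whereas MEF2C and MEF2A mRNAs fell. MAPK7, MAP2K5, MAP3K2 and KLF2 did not pass the test. The 5 of 9 genes that passed stand against 58.1% of all 21518 genes tested, which passed the same test (an adjusted p under 0.05), a share near this background. For 6 of the 9, libraries of the groups did not overlap, against 61.3% of all genes. Under a stricter rule that also asks for an absolute log2 fold change over 1, 0 of the 9 passed in any comparison of this report by edgeR, against 16.7% of all genes in senescence, 0.957% with siNTRK2, 0.609% with siBDNF and 1.16% between the siRNAs. The median log2 fold change of the 9 in senescence was -0.01, against 0.02 for all genes.

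MAPK7 (ENSG00000166484; hg19 chromosome 17, 19281034 to 19286857, plus strand) encodes ERK5. Its mRNA was measured at 29.0, 28.2 and 30.3 CPM in proliferating cells and at 33.8, 30.8 and 31.4 CPM in siCtrl-transfected senescent cells. Every senescent library was above every proliferating library, but the change was small and missed the threshold (log2 fold change 0.14, 95% interval 0.01 to 0.26, edgeR adjusted p = 0.058). It passed in 5 of the other settings, with log2 fold changes from 0.14 to 0.17, and without proliferating replicate 3 (0.16, edgeR adjusted p = 0.0407), and it turned to -0.16 with a length and GC offset that was not centred (edgeR adjusted p = 0.0102). That form of the offset moved the log2 fold changes of all genes in senescence by a median of -0.263. MAPK7 overlaps MFAP4 and B9D1 on the opposite strand. The setting of strand in the counting is not given in the sources used here, so reads of these genes may not be told apart, and MFAP4 mRNA fell by 0.97 on the log2 scale in senescence.

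The 3 upstream kinases did not move together. MAP3K3 (ENSG00000198909; chromosome 17, 61699775 to 61773665, plus strand) was at 29.6, 30.2 and 34.0 CPM in proliferating cells and at 39.9, 41.4 and 37 CPM in senescent cells. The groups did not overlap, and the log2 fold change was 0.34 (SE 0.0653, edgeR adjusted p = 8.73e-05), or 0.02 with the offset that was not centred (edgeR adjusted p = 0.731). Part of that drop goes with the median shift of -0.263 over all genes in this form. This gene overlaps STRADA, whose mRNA was higher in senescence (31.3 ± 1.01 against 22.7 ± 1.61 CPM, SD, n = 3), and LIMD2, whose mRNA was lower (8.11 ± 0.833 against 20.2 ± 2.39 CPM), both on the opposite strand. MAP3K2 (ENSG00000169967; chromosome 2, 128056244 to 128146041, minus strand) was at 35.4, 31.3 and 26.4 CPM in proliferating cells and at 28.6, 30.8 and 27.4 CPM in senescent cells. The spread among the proliferating libraries covered the senescent ones (log2 fold change -0.11, 95% interval -0.27 to 0.05, edgeR adjusted p = 0.244), and without proliferating replicate 3, the lowest, the value was -0.21 (edgeR adjusted p = 0.0139). MAP2K5 (ENSG00000137764; chromosome 15, 67835041 to 68099455, plus strand), which encodes MEK5, was at 12.6, 12.8 and 13.5 CPM in proliferating cells and at 13.3, 12.2 and 11.9 CPM in senescent cells. These groups overlapped (log2 fold change -0.06, 95% interval -0.23 to 0.12, edgeR adjusted p = 0.587).

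The MEF2 factors split by member. MEF2D (ENSG00000116604; chromosome 1, 156433519 to 156470571, minus strand) was at 43.9, 47.3 and 49.3 CPM in proliferating cells and at 68.5, 69.1 and 69.6 CPM in senescent cells. The senescent libraries were all far above the others, with a log2 fold change of 0.56 (SE 0.0505, edgeR adjusted p = 6.76e-10), or 1.48-fold. MEF2A (ENSG00000068305; chromosome 15, 100105622 to 100256693, plus strand) went the other way, from 47.0, 45.1 and 42.3 CPM to 36.2, 39.8 and 39.2 CPM. Its groups did not overlap either (log2 fold change -0.22, SE 0.0567, edgeR adjusted p = 0.00146), but the call was lost with an offset for trends in transcript length and GC content (-0.09, edgeR adjusted p = 0.0785). MEF2C (ENSG00000081189; chromosome 5, 88012934 to 88200074, minus strand), the least abundant of the 3, was at 5.06, 4.37 and 4.84 CPM in proliferating cells and at 3.26, 3.77 and 2.86 CPM in senescent cells, from 165 to 307 counts per library. It fell by 0.53 on the log2 scale (SE 0.13, edgeR adjusted p = 0.00117). MEF2A overlaps LYSMD4, and MEF2C overlaps MEF2C-AS1 and MEF2C-AS2, on the opposite strands.

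Of the KLF genes, KLF4 (ENSG00000136826; chromosome 9, 110247133 to 110252763, minus strand) had the largest change of all 9 genes. It was at 7.0, 7.82 and 6.82 CPM in proliferating cells and at 13.1, 15 and 13.3 CPM in senescent cells. The groups lay wide apart, with a log2 fold change of 0.93 (SE 0.0872, 95% interval 0.75 to 1.11, edgeR adjusted p = 1.49e-09). KLF2 (ENSG00000127528; chromosome 19, 16435637 to 16439496, plus strand) was at 8.67, 8.26 and 8.85 CPM and at 8.41, 8.87 and 8.29 CPM in the same groups. The groups overlapped (log2 fold change -0.01, 95% interval -0.22 to 0.20, edgeR adjusted p = 0.95), and the sign of this value differed between scalings. The interval of KLF2 lies below that of KLF4.

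**Figure D2:**
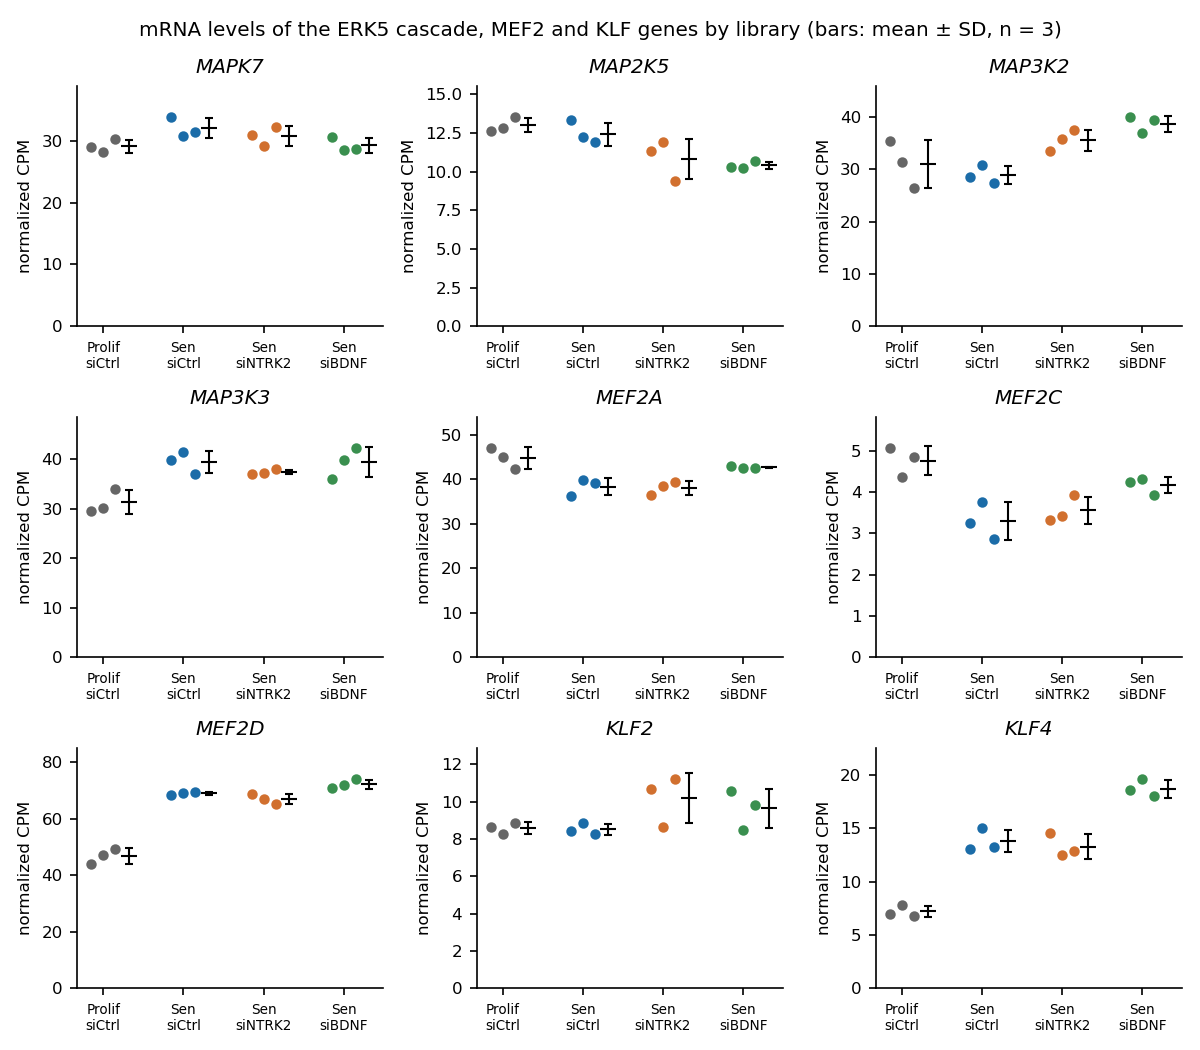
Normalized CPM of each of the 9 mRNAs in every library (points, replicates 1 to 3 from left to right) in the 4 groups, with the mean ± SD (bars, n = 3). KLF4 and MEF2D are higher in every senescent group than in proliferating cells, and the 3 siBDNF libraries of KLF4 (18 to 19.6 CPM) lie above all others.

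Silencing NTRK2 or BDNF in senescent cells was compared with siCtrl to ask how the receptor and its ligand bear on the pathway's mRNAs. Both comparisons share the 3 siCtrl-transfected senescent libraries, so a deviation of these libraries would appear in both. With siNTRK2, MAP3K2 alone passed the test and rose. With siBDNF, KLF4 and MAP3K2 rose and MAP2K5 fell. The 1 of 9 genes that passed with siNTRK2 stands against 21.1% of all genes tested, and the 3 of 9 with siBDNF against 20.5%. Libraries did not overlap for 2 of the 9 genes with siNTRK2, against 32.8% of all genes, and for 7 of the 9 with siBDNF, against 37.3%. The median log2 fold change of the 9 was -0.04 with siNTRK2 and 0.15 with siBDNF, against -0.00236 and 0.00398 for all genes. The siNTRK2 libraries also differed from siCtrl in cell state markers. Proliferation markers (MKI67, TOP2A, CCNB1 and LMNB1) summed to 49.1 to 50.0 CPM with siNTRK2, 27.9 to 29.2 with siBDNF and 26.0 to 27.6 with siCtrl. Senescence markers (CDKN1A, CDKN2A, GLB1 and GDF15) summed to 2280 to 2430 CPM with siNTRK2, 3140 to 3250 with siBDNF and 3160 to 3340 with siCtrl. CDKN1A made up most of this sum (mean 2030 CPM with siNTRK2, 2880 with siCtrl). GDF15 was also lower with siNTRK2 (138 against 211 CPM with siCtrl), whereas CDKN2A (42.0 against 36.4) and GLB1 (155 against 131) were higher. The part of these shifts in the values that follow was not tested.

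MAPK7 mRNA was at 31, 29.1 and 32.3 CPM with siNTRK2 and at 30.7, 28.5 and 28.7 CPM with siBDNF. The siNTRK2 libraries overlapped with the siCtrl libraries given above (log2 fold change -0.06, 95% interval -0.18 to 0.07, edgeR adjusted p = 0.575). Those with siBDNF were all slightly below siCtrl, without passing the test (-0.13, 95% interval -0.26 to -0.0039, edgeR adjusted p = 0.147). A change of MAPK7 mRNA beyond about these intervals was thus not seen with either siRNA.

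MAP3K2 was at 33.4, 35.8 and 37.4 CPM with siNTRK2 and at 39.9, 37 and 39.3 CPM with siBDNF. All 6 libraries were above the 3 siCtrl libraries (27.4 to 30.8 CPM). The log2 fold changes were 0.30 with siNTRK2 (SE 0.077, edgeR adjusted p = 0.00674) and 0.42 with siBDNF (SE 0.077, edgeR adjusted p = 0.000299). The canonical MAP3K2 transcript is 11360 bases long with 36.9% GC, the longest and poorest in GC of the 9. With an offset for length and GC trends neither call held, with values of 0.11 for siNTRK2 (edgeR adjusted p = 0.158) and 0.13 for siBDNF (edgeR adjusted p = 0.0852).

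MAP3K3 was at 37.1, 37.2 and 38.0 CPM with siNTRK2 and at 36.1, 39.9 and 42.2 CPM with siBDNF, and both groups overlapped with siCtrl. MAP2K5 was at 11.3, 11.9 and 9.39 CPM with siNTRK2 and at 10.3, 10.2 and 10.7 CPM with siBDNF. With siNTRK2 the highest library was just below the lowest siCtrl library (log2 fold change -0.20, edgeR adjusted p = 0.109). With siBDNF the log2 fold change of -0.26 passed narrowly (SE 0.0869, edgeR adjusted p = 0.0353). It did not pass without any one of the siBDNF libraries (edgeR adjusted p = 0.0921, 0.138 and 0.0668 without replicates 1, 2 and 3) or without siCtrl replicate 1 or 2 (edgeR adjusted p = 0.172 and 0.0527).

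MEF2D was at 68.9, 66.9 and 65.4 CPM with siNTRK2 and at 70.8, 71.9 and 74.0 CPM with siBDNF, so that every senescent group stayed above proliferating cells. Differences from siCtrl did not pass the test (edgeR adjusted p = 0.613 and 0.415). MEF2A was at 36.4, 38.6 and 39.5 CPM with siNTRK2, within the siCtrl range, and at 43.0, 42.6 and 42.6 CPM with siBDNF, above every siCtrl library. The siBDNF difference of 0.15 on the log2 scale lay just outside the threshold (edgeR adjusted p = 0.0576) and inside it without siCtrl replicate 2 (edgeR adjusted p = 0.0368). Over the fits without 1 library the MEF2A difference ran from 0.11 to 0.18 (edgeR adjusted p up to 0.284). Over the other settings it ran from -0.0003 to 0.21 (edgeR or DESeq2 adjusted p from 0.0136 to 0.998). MEF2C was at 3.33, 3.43 and 3.93 CPM with siNTRK2 and at 4.24, 4.31 and 3.94 CPM with siBDNF. All siBDNF libraries were above siCtrl (log2 fold change 0.34, SE 0.131, edgeR adjusted p = 0.0725), and the difference passed without siCtrl replicate 2 (0.45, edgeR adjusted p = 0.0254). Over the fits without 1 library the MEF2C difference ran from 0.24 to 0.45 (edgeR adjusted p up to 0.298). Over the other settings it ran from 0.11 to 0.39 (edgeR or DESeq2 adjusted p from 0.0379 to 0.632).

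KLF4 gave the clearest difference between the siRNAs. It was at 14.6, 12.5 and 12.9 CPM with siNTRK2, overlapping with siCtrl (log2 fold change -0.05, 95% interval -0.22 to 0.12, edgeR adjusted p = 0.751). With siBDNF it was at 18.6, 19.6 and 18 CPM, above every library of the other groups, with a log2 fold change of 0.44 (SE 0.0817, 95% interval 0.27 to 0.61, edgeR adjusted p = 0.000332). KLF4 thus rose in senescence and was higher again with siBDNF. KLF2 was at 10.7, 8.63 and 11.2 CPM with siNTRK2 and at 10.6, 8.51 and 9.85 CPM with siBDNF. In each group replicate 2 lay within the siCtrl range and the others lay above it, and neither difference passed (0.25, edgeR adjusted p = 0.0728, and 0.17, edgeR adjusted p = 0.275). Without siNTRK2 replicate 2, the library that stands apart, KLF2 was higher by 0.36 on the log2 scale (edgeR adjusted p = 0.00922). The siNTRK2 difference also passed with the length and GC offset, centred (0.29, edgeR adjusted p = 0.0204) or not (0.33, edgeR adjusted p = 0.00824).

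**Figure D3:**
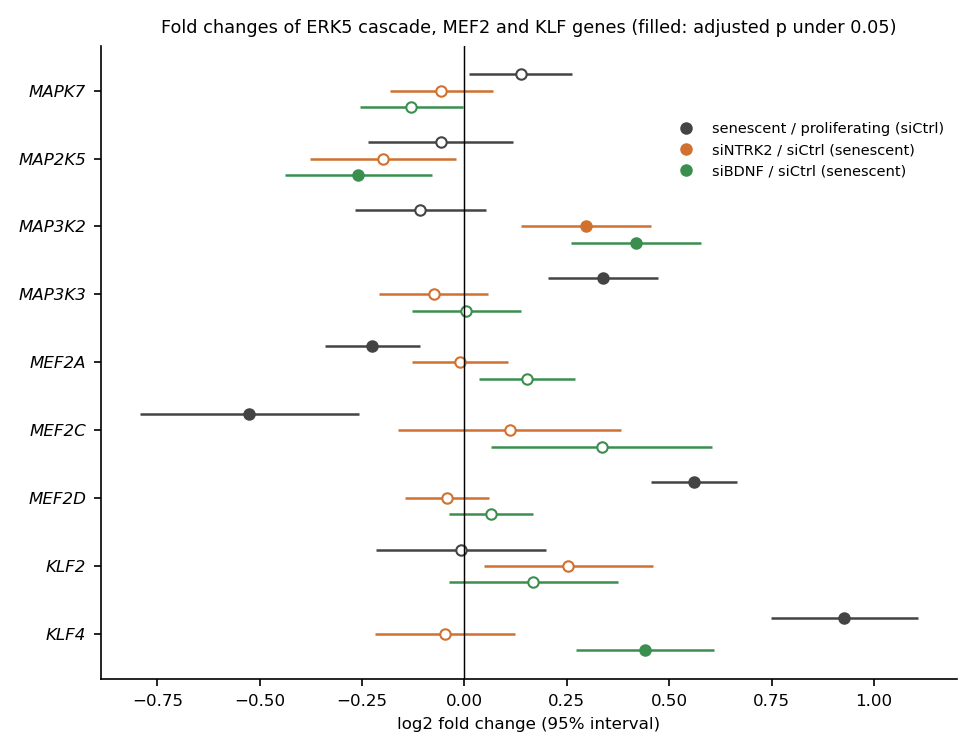
Log2 fold changes of the 9 mRNAs in senescent against proliferating cells and with each siRNA against siCtrl in senescent cells, with 95% intervals; filled points passed the test. MAPK7 stays within 0.14 of 0 in all 3 comparisons, and KLF4 moves up in senescence (0.93) and with siBDNF (0.44) but not with siNTRK2 (-0.05).

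The siRNAs were also compared with each other, which does not use the shared control. KLF4 was lower with siNTRK2 than with siBDNF by a log2 fold change of -0.49 (SE 0.0821, edgeR adjusted p = 0.000117; -0.44 without siNTRK2 replicate 2). MEF2A was lower by -0.16 (SE 0.0569, edgeR adjusted p = 0.0486), a call that was lost when any 1 of these 6 libraries was left out (edgeR adjusted p from 0.0501 to 0.176). These 2 of the 9 genes stand against 16.7% of all genes tested. Libraries did not overlap for 4 of the 9, against 34.2% of all genes. For MAP3K2 the 95% interval of the difference ran from -0.28 to 0.03.

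**Figure D4:**
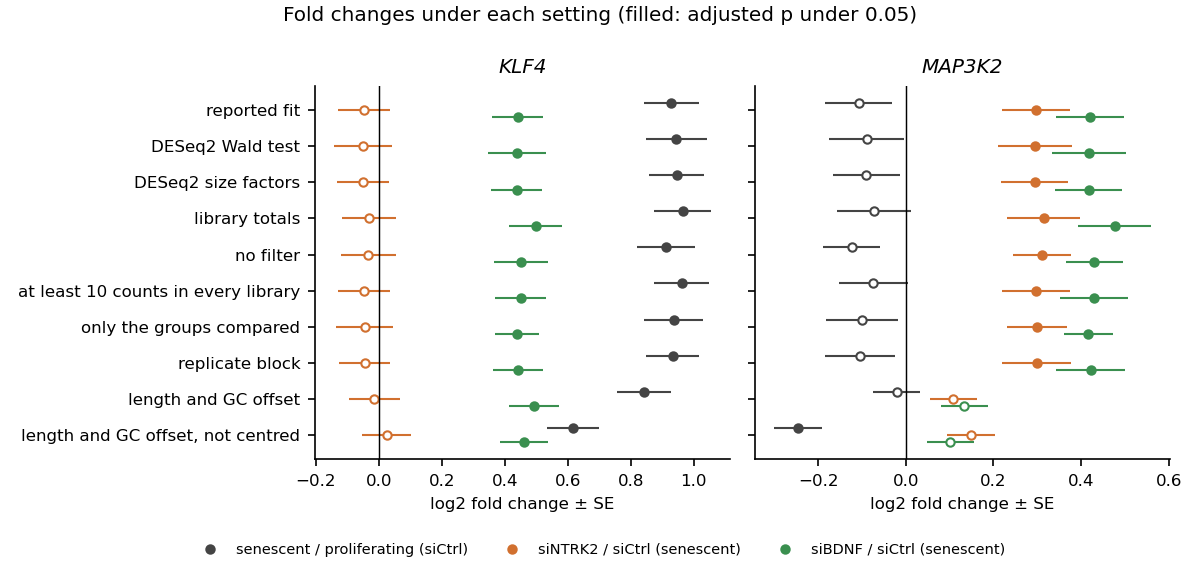
Log2 fold changes ± SE of KLF4 and MAP3K2 under the reported fit and 9 alternative settings, with filled points for an adjusted p under 0.05. The KLF4 calls hold in every setting shown, and the MAP3K2 calls with both siRNAs end with the length and GC offset (0.11 and 0.13).

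Genes around the pathway were read from lists named by role. Of 12 regulators of the ERK5 cascade, 7 rose and 1 fell in senescence, against 58.1% of all genes called, with a median log2 fold change of 0.215, against 0.02 for all genes. The phosphatases DUSP6 (1.56, edgeR adjusted p = 1.09e-18) and DUSP1 (0.85, edgeR adjusted p = 7.58e-14), which remove phosphate from MAP kinases, rose most, and the adaptor GAB1 fell (-0.51, edgeR adjusted p = 0.00211). DUSP6 was at 34.0, 33.4 and 31.5 CPM in proliferating cells and at 98.9, 100 and 93.6 CPM in senescent cells, with no overlap. With siNTRK2 2 of the 12 fell, against 21.1% of all genes called, the scaffold SQSTM1 (-0.31, edgeR adjusted p = 2.3e-05) and PML (-0.25, edgeR adjusted p = 0.00386). With siBDNF 2 rose and 3 fell, against 20.5% of all genes called. SGK1 (0.23, edgeR adjusted p = 0.00659) and DUSP6 (0.17, edgeR adjusted p = 0.0111) rose. The chaperone HSP90AB1 (-0.22, edgeR adjusted p = 0.000472), its co-chaperone for kinases CDC37 (-0.16, edgeR adjusted p = 0.0167) and SQSTM1 (-0.13, edgeR adjusted p = 0.0386) fell. The DUSP6 call was lost in at least 1 fit without 1 library (edgeR adjusted p up to 0.0794). The SQSTM1 call with siBDNF was not followed in the other settings. The CDC37 call was lost without siBDNF replicate 1 or 2 or siCtrl replicate 1 or 3 (edgeR adjusted p up to 0.105), with library totals, and with both forms of the length and GC offset (edgeR adjusted p up to 0.171).

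Of 14 partners and co-regulators of MEF2, 4 rose and 7 fell in senescence, against 58.1% of all genes called. The kinase SIK1, which phosphorylates class IIa histone deacetylases, rose most (1.26, edgeR adjusted p = 1.95e-08), followed by CAMK2G (0.71, edgeR adjusted p = 6.22e-11), and CABIN1, a repressor of MEF2, fell most (-0.61, edgeR adjusted p = 5.86e-10). With siNTRK2 4 of the 14 rose and 1 fell, against 21.1% of all genes called, and with siBDNF 4 rose and 2 fell, against 20.5%. The 2 that fell with siBDNF, HDAC5 (-0.21, edgeR adjusted p = 0.00921) and CAMK2D (-0.15, edgeR adjusted p = 0.0199), were no longer called with library totals, without siBDNF replicate 2 or without siCtrl replicate 1, nor was CAMK2D without siCtrl replicate 3 or without the filter on low counts. The acetyltransferase EP300, a coactivator, was at 41.0, 45.1 and 38.6 CPM with siCtrl, at 55.4, 50.3 and 51.8 with siNTRK2 and at 57.4, 61.7 and 57.2 with siBDNF. All silenced libraries were above siCtrl, with log2 fold changes of 0.34 (edgeR adjusted p = 0.000249) and 0.50 (edgeR adjusted p = 1.96e-06). HDAC9, a deacetylase that binds MEF2 and is itself a MEF2 target, rose in senescence (0.57, edgeR adjusted p = 2.58e-05) and fell with siNTRK2 (-0.46, edgeR adjusted p = 0.0013); with siBDNF it was higher by 0.16 without passing (edgeR adjusted p = 0.262).

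Among 12 MEF2 target genes, 10 had enough counts, of which 7 rose and 1 fell in senescence, against 58.1% of all genes called. The median log2 fold change was 0.83, against 0.02 for all genes. It was the same with SMYD1 at its lower bound, which could not move it, as SMYD1 stays above the median of these genes either way. Several of these genes belong to muscle and were near the limit of detection. SMYD1, a muscle methyltransferase, had 0 counts in every proliferating library and 30, 32 and 21 counts in siCtrl-transfected senescent cells, at least 8.15-fold higher against 3 counts per library. CKM, muscle creatine kinase, had 0, 1 and 0 counts and then 26, 21 and 19. Such a rise was not particular to MEF2 targets. CDH5, PTPRC and CD3E, also at 0 in proliferating cells, averaged 0.163, 0.944 and 0.105 CPM in siCtrl-transfected senescent cells. With siNTRK2 only HDAC9 passed, and with siBDNF JUN (0.26, edgeR adjusted p = 0.00139) and KLF6 (0.17, edgeR adjusted p = 0.017), 2 of the 10, rose, against 21.1% and 20.5% of all genes called. The median log2 fold change of the 10 was -0.392 with siNTRK2 and 0.0726 with siBDNF, against -0.00236 and 0.00398 for all genes. The KLF6 call was lost without siBDNF replicate 1 or 3 or siCtrl replicate 1 or 3 (edgeR adjusted p up to 0.076), and with the length and GC offset that was not centred (0.10, edgeR adjusted p = 0.108).

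Among 7 genes known as targets of KLF2 and KLF4 in endothelial cells, 4 rose and 1 fell in senescence, against 58.1% of all genes called. The gene that fell was S1PR1 (-0.95, edgeR adjusted p = 5.18e-08), and the median log2 fold change was 0.619, the value of EDN1. The list was not split by the direction in which the factors act on each gene, so its counts and median carry no single direction. Thrombomodulin (THBD), an anticoagulant receptor, was at 0.126, 0.242 and 0.0812 CPM in proliferating cells, at 1.44, 1.10 and 0.485 CPM in senescent cells with siCtrl, at 1.08, 0.907 and 0.671 CPM with siNTRK2 and at 3.51, 3.04 and 3.77 CPM with siBDNF. It was low in every group, from 3 to 259 counts per library, and highest in all siBDNF libraries. The log2 fold changes were 2.61 in senescence (edgeR adjusted p = 3.12e-06), -0.18 with siNTRK2 (edgeR adjusted p = 0.735) and 1.77 with siBDNF (edgeR adjusted p = 4.52e-05). Argininosuccinate synthase (ASS1) rose in senescence (1.86, edgeR adjusted p = 7.44e-19) and fell with siNTRK2 (-0.63, edgeR adjusted p = 8.39e-09) and with siBDNF (-0.54, edgeR adjusted p = 1.03e-07). Endothelin 1 (EDN1), a vasoconstrictor, was at 10.1, 10.9 and 12.7 CPM with siCtrl and between 14.7 and 15.8 CPM in the 6 silenced libraries, higher by 0.44 with siNTRK2 (edgeR adjusted p = 0.000972) and by 0.45 with siBDNF (edgeR adjusted p = 0.00071). CDKN1A, the cell cycle inhibitor p21 and also a senescence marker here, fell with siNTRK2 (-0.50, edgeR adjusted p = 2.8e-09) and differed by -0.04 with siBDNF (edgeR adjusted p = 0.548). In total 4 of the 7 passed with siNTRK2, 2 up and 2 down, against 21.1% of all genes, and 3 with siBDNF, 2 up and 1 down, against 20.5%.

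The other KLF genes were read in the same way. Of 12 tested, 7 fell and 3 rose in senescence, against 58.1% of all genes called, with a median log2 fold change of -0.272; KLF12 (-0.97, edgeR adjusted p = 7.6e-11) and KLF15 (-1.84, edgeR adjusted p = 6.3e-05) fell most. KLF15 had 39 to 82 counts in proliferating libraries and 12 to 20 in senescent ones. Among those that rose, KLF17 (2.06, edgeR adjusted p = 0.00556) had only 8, 1 and 4 counts in proliferating libraries. Its call was lost in at least 1 fit without 1 library (edgeR adjusted p up to 0.0541). The call of KLF11 (0.28, edgeR adjusted p = 0.0352) was lost likewise (edgeR adjusted p up to 0.178), and in at least 1 other setting (edgeR or DESeq2 adjusted p up to 0.944). With siBDNF 4 of the 12 rose and none fell. KLF5 rose from 9.01, 9.01 and 9.63 CPM to 11.4, 11.1 and 12.7 CPM (0.35, edgeR adjusted p = 0.00463), and KLF13 rose as well (0.29, edgeR adjusted p = 0.000135). The 4 stand against 20.5% of all genes called with siBDNF in either direction, and against 10.3% that rose. Of these calls KLF6 was lost in the fits named above and KLF5 without siBDNF replicate 3 (edgeR adjusted p = 0.0512). The KLF3 call (0.26, edgeR adjusted p = 0.0134) was not followed in the other settings. With siNTRK2 KLF7 (0.35, edgeR adjusted p = 0.000156) and KLF12 (0.27, edgeR adjusted p = 0.0155) rose, and none of the 12 fell, by the same edgeR test, against 21.1% of all genes called. The KLF12 call was lost without siCtrl replicate 3 or siNTRK2 replicate 3 (edgeR adjusted p up to 0.142) and with both forms of the length and GC offset (edgeR adjusted p up to 0.227).

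**Figure D5:**
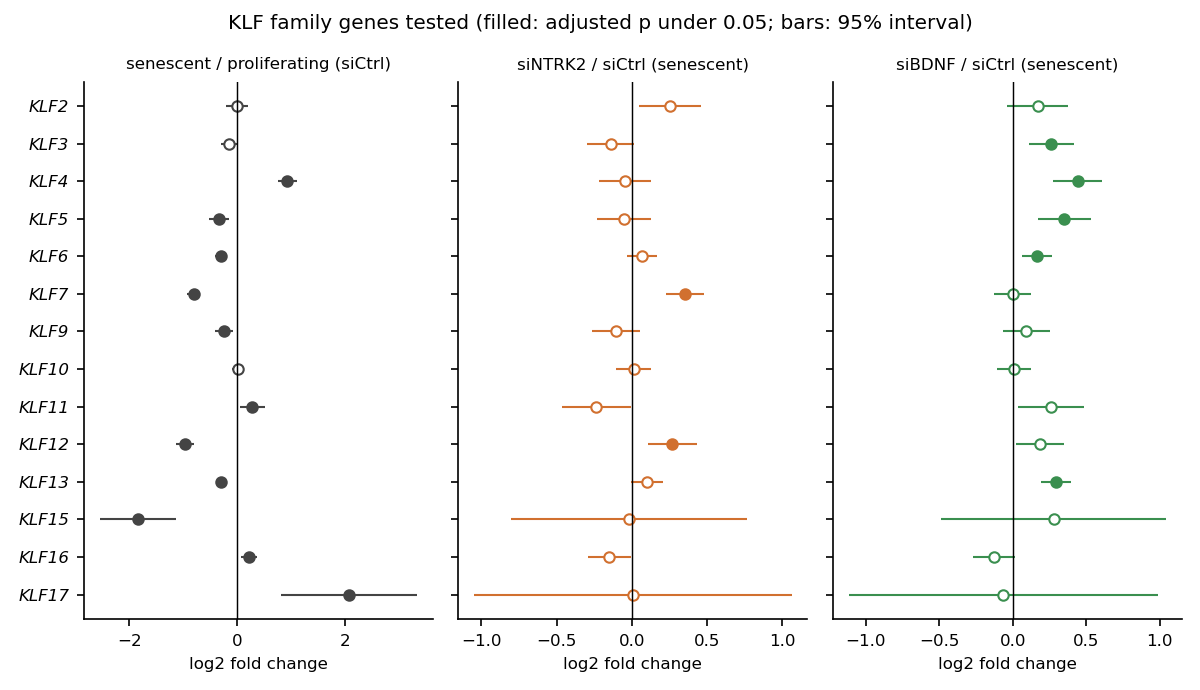
Log2 fold changes of the 14 KLF genes tested, KLF2 and KLF4 included, in 3 comparisons with separate x axes; bars are 95% intervals and filled points passed the test. KLF4 is the most significant of the genes that rose in senescence, and KLF3, KLF4, KLF5, KLF6 and KLF13 rose with siBDNF, KLF5 and KLF6 with calls that end when single libraries are left out. The KLF3 call was not followed in the other settings.

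The other MAP kinases and MAP2Ks showed how MAPK7 compares with its relatives. Of 16 tested, 5 rose and 6 fell in senescence, 2 rose and 3 fell with siNTRK2, and 3 rose and 3 fell with siBDNF, against 58.1%, 21.1% and 20.5% of all genes called. MAPK3 (ERK1), the kinase of the classical cascade, was at 83.1, 83.4 and 89.6 CPM in proliferating cells and at 121, 108 and 116 CPM in senescent cells. It was at 87.3, 87.4 and 87.4 CPM with siNTRK2 and at 92.4, 89.6 and 94.3 CPM with siBDNF, below every siCtrl senescent library. It thus rose in senescence (0.43, edgeR adjusted p = 3.8e-08) and fell with siNTRK2 (-0.40, edgeR adjusted p = 1.72e-06) and siBDNF (-0.32, edgeR adjusted p = 3.5e-05). MAP2K1 (0.49, edgeR adjusted p = 3.9e-09) and MAPK13 (0.83, edgeR adjusted p = 1.49e-08) rose in senescence, and MAPK10 (-1.04, edgeR adjusted p = 9.7e-08) fell.

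Of 4 other genes known to respond to ERK5, 2 rose and 1 fell in senescence, 2 fell with siNTRK2 and 1 fell with siBDNF, beside the same shares of all genes. Cyclin D1 (CCND1) rose in senescence (1.76, edgeR adjusted p = 2.18e-21) and was lower with siNTRK2 (-0.15, edgeR adjusted p = 0.0065), a call lost without siNTRK2 replicate 2 (edgeR adjusted p = 0.0507). FOSL1 was the other gene that fell with siNTRK2. Without 1 library its values ran from -0.17 to -0.11 (edgeR adjusted p up to 0.146). In the other settings they ran from -0.15 to -0.03 (edgeR or DESeq2 adjusted p up to 0.617). BCL2L2, which encodes the survival protein BCL-w, rose in senescence (0.51, edgeR adjusted p = 3.06e-07) and fell with siBDNF (-0.23, edgeR adjusted p = 0.011), a call lost without siBDNF replicate 3 or siCtrl replicate 2 (edgeR adjusted p = 0.123 and 0.0666) and with library totals (-0.17, edgeR adjusted p = 0.0755). With siNTRK2 its difference of -0.10 did not pass (edgeR adjusted p = 0.286). Reads of BCL2L2 and of the readthrough gene that shares its exons may not be told apart.

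Of 15559 genes with a mean of at least 1 CPM, the pattern of MAPK7 over the 12 libraries was nearest to that of GPRASP2, NOC2L, MRPL2, USP5 and UNC45A. Their root mean square differences from MAPK7 in centred log2 CPM were 0.0446, 0.0466, 0.0467, 0.0472 and 0.0492, against a median of 0.211 over all genes compared. They were picked as the smallest differences, so their place below the median was set by the choice. The SD of MAPK7 itself over the libraries was 0.0755 on this scale, so a gene with no change over the libraries would differ from it by 0.0755.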

How the data were processed

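Bulk polyadenylated RNA of 12 WI-38 libraries was sequenced from stranded libraries. The authors trimmed adapters with cutadapt, aligned reads to hg19 with STAR 2.4.0j and deposited counts per Ensembl gene from featureCounts 1.6.4 without normalization, 1 file per library (bcl2fastq 2.20.0.422 made the reads, per the submitters' processing notes). The strand setting and the handling of overlapping genes are not given in the sources used here. A name table paired 55538 of 57773 identifiers with a symbol.

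Group differences were fitted with edgeR 4.0.16 in R 4.3.3 (TMM, filterByExpr over the 4 groups, 21518 genes kept, quasi-likelihood test, all 12 libraries with 1 term per group, Benjamini-Hochberg adjustment over all genes tested). A gene was called at an adjusted p under 0.05; the stricter rule of the study's methods, which adds an absolute log2 fold change over 1, was an alternative. The SE of a log2 fold change was taken as its size over the root of its F value. Intervals are at the 95% level. CPM are scaled by TMM factors. Totals ranged from 31567912 to 72328151 counts, and 3 counts per library were taken as the limit of detection; the reads carry no molecular identifiers, so this limit covers counting error only. Positions and transcript lengths come from a GENCODE annotation on hg19, and promoters from RefSeq on GRCh38.p14. Replicates differed by more than sampling noise (chi-square from 3.92 to 13.6 per gene).

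The other settings were the Wald test of DESeq2 1.42.0, its size factors used in edgeR, library totals, a filter at 10 counts in each library, none at all, the compared groups alone, the replicate number as a block, the stricter call rule and leaving out single libraries. An offset for trends in transcript length and GC content (natural splines, 4 degrees of freedom, per library; 93.3% of tested genes had both values) was added after the data were seen. It was run as fitted at first, which also moves the mean level of a library, and was centred within each library after those results had been seen. Values of both forms are given for some results, and of only 1 form for others. The scripts were tested on simulated counts. The genes and lists were chosen with earlier results of these data known. Genes named from each list were at most the 2 highest and 2 lowest log2 fold changes among those called in a comparison. KLF3 was named after its values were seen, as were the values given for a named gene in comparisons where the rule did not pick it, and the values of genes overlapping MAPK7 and MAP3K3. KLF6, HDAC9 and MAPK14 stand in more than 1 list.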

Additional observations from a re-analysis of the deposited data

Results flagged for a closer look

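KLF4 and MEF2A responded differently to the silencing of NTRK2 and of BDNF, as tested by comparing the siRNAs directly. KLF4 mRNA differed by -0.49 on the log2 scale between siNTRK2 and siBDNF, with every siNTRK2 library (12.5 to 14.6 CPM) below every siBDNF library (18 to 19.6 CPM), and the edgeR adjusted p stayed between 6.89e-05 and 0.00216 when libraries were left out in turn. MEF2A mRNA differed by -0.16, also without overlap (36.4 to 39.5 against 42.6 to 43.0 CPM), but its edgeR adjusted p of 0.0486 rose to between 0.0501 and 0.176 when any of these 6 libraries was left out. In the same libraries the summed proliferation markers were 49.1 to 50.0 CPM with siNTRK2 and 27.9 to 29.2 CPM with siBDNF, and their part in these differences was not tested.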

How the results depend on the processing

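The KLF4 calls in senescence, with siBDNF and between the siRNAs held at an adjusted p under 0.05 in every fit, with log2 fold changes of 0.62 to 0.98, 0.41 to 0.51 and -0.56 to -0.44. MEF2D and MEF2C in senescence also held in every fit. Under the stricter call rule 0 of the 9 genes passed in any comparison by edgeR, against 5, 1, 3 and 2 at the adjusted p alone (in the order senescence, siNTRK2, siBDNF, siNTRK2 against siBDNF), and calls over all genes were 3604, 206, 131 and 250. Leaving out 1 library gave 5 to 7, 1 to 2, 2 to 4 and 1 to 1 of the 9, and 11565 to 12381, 2943 to 4804, 2914 to 4651 and 2286 to 3249 over all genes. The calls between the siRNAs fell to 1 without the filter and with the replicate block. Same-numbered libraries showed little shared deviation (mean correlation 0.0168, from -0.189 to 0.172, over 0.1 in 5 of 18 pairs). With 3 libraries a group this cannot exclude that same-numbered libraries came from a shared experiment.

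The length and GC offset left 1 call with siBDNF, in both forms. As fitted, without centring, it gave 8 calls in senescence, 1 between the siRNAs and 5491 over all genes between the siRNAs; it moved the median of all genes in senescence by -0.263, and with that shift MAPK7 (-0.16), BDNF (-0.13) and KLF11 (-0.0099) changed sign, while the MAP3K3 call was lost (0.02). The same form turned MAPK7 (0.0216) and KLF4 (0.0255) with siNTRK2, MAP3K3 (-0.0254) and MEF2A (-0.0003) with siBDNF and MAP3K2 (0.0463) between the siRNAs. With centring, MEF2C with siNTRK2 turned to -0.0307. KLF2 in senescence turned to 0.0068 with DESeq2, 0.0088 with its size factors, 0.0277 with library totals and 0.0254 with at least 10 counts, and MEF2A with siNTRK2 to 0.007 with library totals and 0.0028 without the filter. Without 1 library KLF2 in senescence ranged from -0.0523 to 0.009, MEF2A with siNTRK2 from -0.0524 to 0.0266, KLF4 with siNTRK2 from -0.1221 to 0.0267, MAP3K3 with siBDNF from -0.0501 to 0.0601 and BDNF in senescence from -0.0036 to 0.0481. None of these turned values was called in the reported fit, except KLF11 in senescence. DESeq2 gave no adjusted p for NTRK2 in both comparisons of siNTRK2 libraries. The causes were not tested. At 3 libraries a group, changes the size of those of MAPK7 lay near what these data could resolve.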
